A study of Saccharomyces cerevisiae BY4741 with 4 samples.

Results

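The H/ACA small nucleolar RNAs (snoRNAs) of budding yeast and the genes of the proteins bound to them were followed through the purification of poly(A) RNA. The members were the rows of the deposited read count table whose gene ID matched a list of 29 H/ACA snoRNAs and of the 4 core protein genes CBF5, NHP2, NOP10 and GAR1. All 33 had a row among the 7382 features of the table, so none was missing. The cells were wild type Saccharomyces cerevisiae of strain BY4741, grown in YPD medium at 30 °C to an OD600 of 0.6. The labels name 2 biological replicates of total RNA. They name another 2 of poly(A) RNA, which had passed oligo-dT beads and an rRNA depletion kit. No treatment or mutation separated the groups, so each comparison is between RNA fractions of the same kind of culture.

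H/ACA snoRNAs fold into hairpins with an ACA box near the 3′ end and a hinge box between the hairpins. A pocket inside a hairpin pairs with rRNA and exposes a single uridine, which the bound pseudouridine synthase Cbf5 isomerises to pseudouridine. Nhp2, Nop10 and Gar1 complete the particle. In yeast, most of these RNAs guide pseudouridylation of rRNA, while snR30 and snR10 are also known for their part in the cleavage of the rRNA precursor. Mature snoRNAs carry no poly(A) tail, whereas short tails mark precursors and RNAs bound for degradation or trimming by the nuclear exosome. The snoRNAs are thus structured, untailed RNAs, and the core proteins are made from ordinary polyadenylated mRNAs.

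The sequences of 6 members on which the results turn are shown 5′ to 3′, as DNA, from RefSeq build R64. In all of them but snR44, capitals mark an ACA that ends 3 bases before the annotated 3′ end. In snR34 and snR33, capitals further upstream mark the guide elements found by a search against their listed rRNA target. snR34 (chrXII:899180-899382, plus strand) and snR33 (chrIII:142364-142546, minus strand) show the pocket. snR83 (chrXIII:626349-626654, plus strand, of which the last 300 bases from 626355 are shown) had the largest difference between fractions and the highest level per length. snR44 (chrXII:856710-856920, plus strand) lies in an intron and had the smallest difference of the called snoRNAs, followed by snR161 (chrII:307185-307345, minus strand). snR10 (chrVII:345986-346230, plus strand) lost nearly all its reads to a joined row.
snR34: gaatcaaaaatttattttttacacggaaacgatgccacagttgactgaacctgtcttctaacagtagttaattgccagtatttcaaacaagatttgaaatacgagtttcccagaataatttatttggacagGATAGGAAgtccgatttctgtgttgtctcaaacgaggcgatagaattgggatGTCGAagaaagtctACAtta
snR33: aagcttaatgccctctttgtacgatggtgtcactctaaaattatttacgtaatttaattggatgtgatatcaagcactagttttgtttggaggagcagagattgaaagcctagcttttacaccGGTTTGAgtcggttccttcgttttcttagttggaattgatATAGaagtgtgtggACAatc
snR83: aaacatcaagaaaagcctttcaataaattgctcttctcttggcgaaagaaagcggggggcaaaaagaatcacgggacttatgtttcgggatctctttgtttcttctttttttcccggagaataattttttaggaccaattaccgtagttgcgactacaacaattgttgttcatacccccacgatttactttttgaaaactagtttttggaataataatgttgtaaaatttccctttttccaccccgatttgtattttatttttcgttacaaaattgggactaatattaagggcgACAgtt
snR44: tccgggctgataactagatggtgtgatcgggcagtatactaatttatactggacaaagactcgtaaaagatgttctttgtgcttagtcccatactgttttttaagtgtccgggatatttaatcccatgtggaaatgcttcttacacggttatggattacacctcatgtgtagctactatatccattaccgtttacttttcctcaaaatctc
snR161: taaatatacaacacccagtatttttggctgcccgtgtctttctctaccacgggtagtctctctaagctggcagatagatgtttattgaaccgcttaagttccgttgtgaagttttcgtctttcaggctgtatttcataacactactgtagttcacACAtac
snR10: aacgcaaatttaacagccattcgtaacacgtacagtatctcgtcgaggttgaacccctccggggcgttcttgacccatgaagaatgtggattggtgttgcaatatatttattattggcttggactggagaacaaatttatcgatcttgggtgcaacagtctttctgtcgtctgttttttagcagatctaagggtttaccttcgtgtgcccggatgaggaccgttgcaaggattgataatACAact

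The reference lists 46 rRNA target positions for 28 of the 29 snoRNAs, and 45 of these positions hold a T, which is U in the RNA. The exception, position 2345 of 25S rRNA listed for snR9, holds an A, so this listing may be off. Its notes for snR35 and snR85 call their targets predicted. snR30 has no listed target position. The target of snR34 at position 2880 of 25S rRNA (chrXII:452290-452314, minus strand) and that of snR33 at position 1042 (chrXII:454128-454152, minus strand) read as follows, with the modified base in capitals.
25S rRNA at 2880: ttcgatgtcggcTcttcctatcata
25S rRNA at 1042: accttgacctatTctcaaactttaa
The search asked for at least 11 paired bases beside the target base and its 3′ neighbour, at most 2 of them G-U pairs, with the 3′ element starting 13 to 16 bases before the ACA. It found 8 and 5 paired bases in snR34 and 7 and 4 in snR33, both with the 3′ element 14 bases before the ACA. Such a match was found for 4 of the 46 positions. It is a description of letters, and matches beside the hinge box were not counted under this rule.

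The letters ACA, on the transcribed strand and ending 3 bases before the annotated 3′ end, were present in 14 of 29 H/ACA snoRNAs (48.3%) and in 3 of 47 C/D snoRNAs (6.38%), the other main class, which guides ribose methylation. With any middle letter, A-N-A, the counts were 20 of 29 (69.0%) and 3 of 47 (6.38%). The H/ACA members were 161 to 1004 nucleotides long, with a median of 204. The set has 2 members that lie in introns on the host's strand, snR44 in RPS22B and snR191 in NOG2. A single one, snR10, overlaps a reading frame on its own strand, and the other 26 overlap no annotated gene on their own strand. The set is spread over 12 chromosomes, with 7 members on chromosome XV, where snR31 and snR5 stand back to back with 220 bases between them. None of the 29 shares a stretch of 50 bases with another place in the genome, so reads of this length are not split with a copy.

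The libraries held 53746838 and 75955489 counts in total RNA and 52851542 and 53180654 in poly(A) RNA. rRNA took 96.4% of the counts in each total RNA library and 0.0491% in each poly(A) library. The H/ACA snoRNAs carried 58499 and 73589 counts in total RNA and 24767 and 25670 in poly(A) RNA. The labels call the replicates biological and give no further link between the fractions. Per-feature levels are CPM after TMM normalisation, a scaling of the read counts that sets the typical feature equal in both fractions. A log2 fold change is poly(A) against total RNA on that scale. The counts describe relative abundance in bulk RNA, so fewer cells that hold an RNA and less of it per cell cannot be told apart.

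As a share of all counts, the H/ACA snoRNAs held 0.109% and 0.0969% of the total RNA libraries and 0.0469% and 0.0483% of the poly(A) libraries. The means were 0.103% ± 0.00846 and 0.0476% ± 0.000996 (SD, n = 2 each), a 2.16-fold lower share. The share was also taken without rRNA, which fills the total RNA libraries. Of the counts outside rRNA, the H/ACA snoRNAs made up 3.01% and 2.70% in total RNA and 0.0469% and 0.0483% in poly(A) RNA, a 60.0-fold lower share. Both poly(A) libraries lay below both total RNA libraries in each measure. For both, a two-sided exact permutation test gave p = 0.333, the smallest that the 6 labelings of 2 against 2 libraries allow. Within all snoRNA counts the H/ACA class held 71.3% and 70.9% of total RNA against 75.8% and 75.02% of poly(A) RNA (exact two-sided permutation p = 0.333). These shares use the own row of snR10, and the row that joins it with YGL088W is not among the snoRNA counts. With that joined row added, the mean shares of all counts were 0.112% and 0.0505%, a 2.22-fold lower share in poly(A) RNA.

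Per gene, edgeR's quasi-likelihood test with an adjusted p under 0.05 called 28 of the 29 H/ACA snoRNAs lower in poly(A) RNA and 0 higher. Among all 6945 features tested, 31.2% were lower, 31% higher and 62.2% either. At an unadjusted p under 0.05 the counts were again 28 lower and 0 higher, and DESeq2 gave the same counts. All 29 passed the filter on low counts. In the stricter test against a 2-fold change, 27 of the 29 were lower, against 10.6% of all features. The median log2 fold change was -5.69 for the 29, beside 0.044 for all features tested. Without snR10, the normalised level was between 1.76-fold and 259-fold lower in poly(A) RNA, with a median of 53.9-fold. In the same 28, both poly(A) libraries lay below both total RNA libraries, as they did in 38.3% of all features.

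The direction is relative to the typical feature, which is an mRNA. With library totals in place of TMM, the median of all features moved from 0.044 to 5.34, and the H/ACA snoRNAs split into 14 lower and 10 higher, with a median of -0.38. Of all calls, 98.9% were then higher, against 49.9% with TMM. With scaling to the sum of protein-coding counts, the median of all features was 0.37, 67.1% of calls were higher, and 28 H/ACA snoRNAs were still lower. The differences between members do not depend on the scaling. The fold changes of snR44 and snR83 lay 7.19 apart on the log2 scale, a 146-fold difference in how far the fractions differed.

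**Figure D1:**
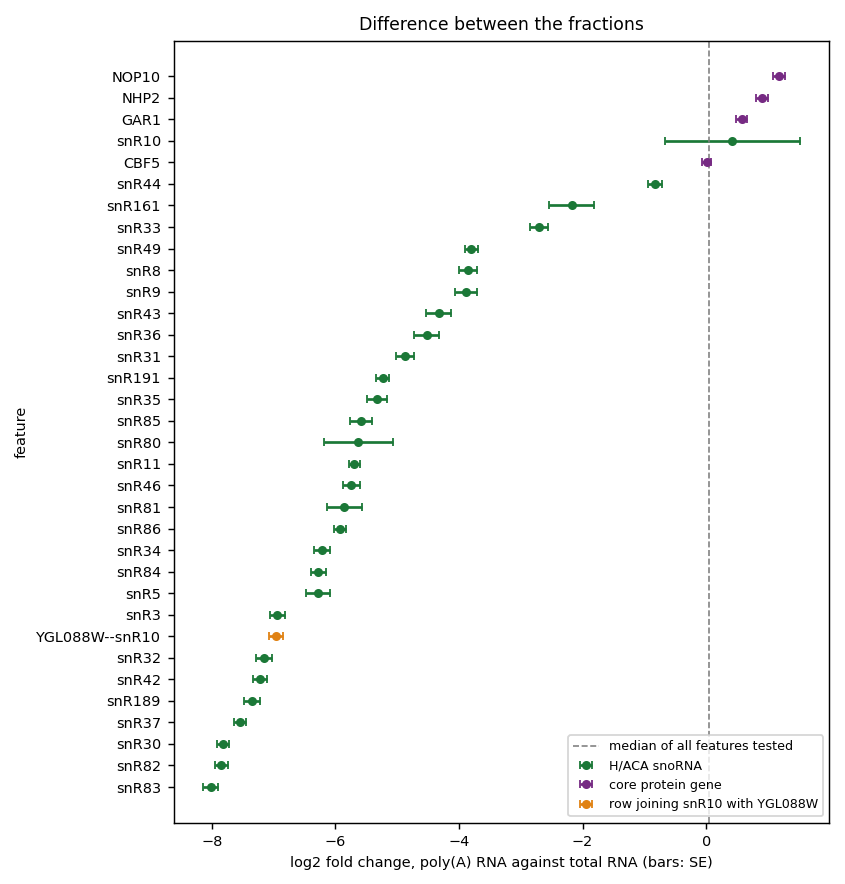
Log2 fold change of each member, poly(A) against total RNA after TMM, with its SE as a bar. The dashed line is the median of all features tested, and the orange point is the row that joins snR10 with YGL088W. The snoRNAs other than snR10 spread from -8.02 to -0.83, while NHP2, NOP10 and GAR1 lie to the right of the line. With library totals 11 of the 29 snoRNAs had values above 0.

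The highest levels in total RNA belonged to RNAs with roles in both subunits. Per kilobase of annotated length, snR83, a guide for the small-subunit rRNA, stood at 4175 ± 42.6 normalised CPM (SD, n = 2) in total RNA. snR30, the essential RNA needed to release the 18S precursor, stood at 2604 ± 123, and snR86, the longest member and a guide for 25S rRNA, at 1974 ± 149. The order of these 3 exceeded the spread between replicates. This ranking uses the own row of each member. The row that joins snR10 with YGL088W stood at 2357, between snR30 and snR86. Next among the own rows came snR32 at 1176 ± 213, snR82 at 1064 ± 41.2 and snR37 at 922.5 ± 57.0, all guides for 25S rRNA. The levels of snR32 and snR82 did not differ beyond the spread of snR32. At the low end, snR81, which also guides the U2 spliceosomal RNA, stood at 30.9 ± 5.68, snR80 at 10.4 ± 6.25 and snR161 at 9.19 ± 1.12. The level of snR161 lay within the spread of snR80. These levels are reads per length, and recovery of short RNAs in the libraries was not tested.

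**Figure D2:**
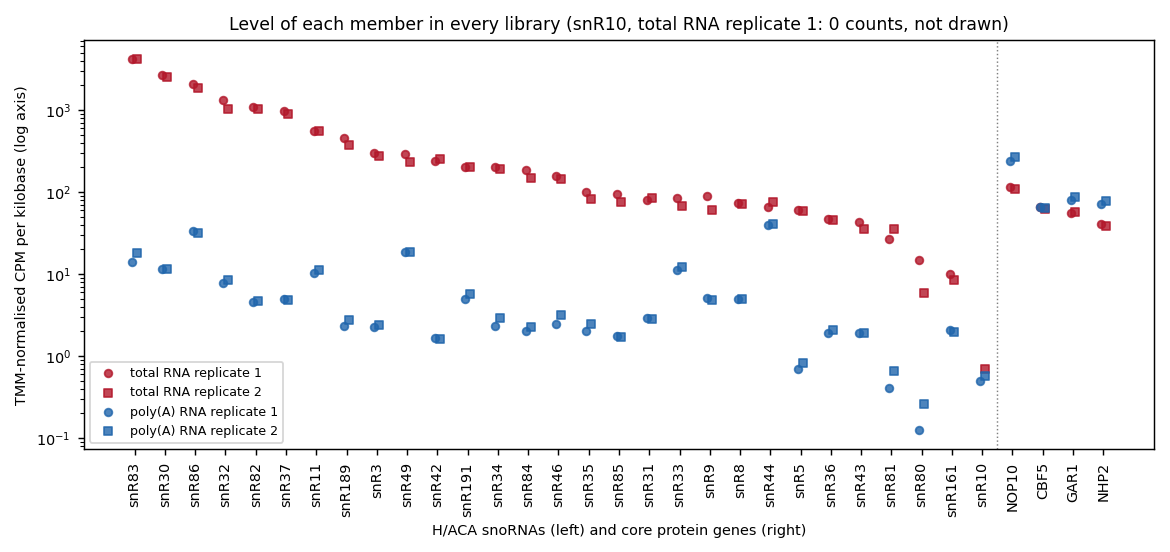
Level of each member in every library, as TMM-normalised CPM per kilobase of annotated or coding length on a log axis. Red symbols are total RNA and blue symbols poly(A) RNA, circles replicate 1 and squares replicate 2. Members are ordered by their level in total RNA, from snR83 at 4175 down to the own row of snR10 at 0.345, followed by the 4 core protein genes.

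Among the RNAs of precursor processing, snR30 (chrXII:198784-199389) had the third-lowest log2 fold change of the set. It had 14201 and 18052 counts in total RNA and 2319 and 2342 in poly(A) RNA. Its normalised level was 1578 ± 74.7 CPM in total RNA against 6.98 ± 0.0484 in poly(A) RNA (SD, n = 2), its log2 fold change being -7.82 (SE 0.10, adjusted p = 8.87e-25). The fractions did not overlap, and the replicates of each were close.

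For snR10, whose RNA is needed for early cleavages of the rRNA precursor and guides 25S rRNA at position 2923, its own row held 0 and 2 counts in total RNA and 40 and 47 in poly(A) RNA. This row is the exception among the 29, its log2 fold change being 0.42 (SE 1.09, adjusted p = 0.762). Over both replicates that is 2 against 87 counts, a ratio of 1.34 after TMM normalisation with an exact 95% interval of 0.360 to 11.2, which covers counting error only. It passed the filter on low counts through its poly(A) counts. The row that joins snR10 with YGL088W, a reading frame on the same strand, held 5697 and 5923 counts in total RNA and 1499 and 1588 in poly(A) RNA. It thus took 99.98% of the total RNA reads with this snoRNA's name and 97.3% of those in poly(A) RNA. YGL088W alone, by its counts in the table, had at most a single read in any library. The joined row had a log2 change of -6.96 (SE 0.12, adjusted p = 4e-22). With its reads added to snR10, the value of the gene was -6.92 and all 29 snoRNAs were lower. Its levels in total RNA, 654.2 and 500.5 CPM, come to a mean of 2357 CPM per kilobase of snR10, between those of snR30 and snR86, and its replicates overlapped those of both.

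Guides with 25S as their only rRNA target made up 16 of the remaining members, among them snR81, which also guides U2. They ranged from -7.85 to -2.70, with a median of -6.07. snR82, which guides 3 positions, was the lowest of them, with 2552 and 3284 counts in total RNA and 400 and 427 in poly(A) RNA, its log2 fold change being -7.85 (SE 0.10). snR37, also known for a structural role in early large-subunit assembly, had -7.55, snR42 -7.22 and snR32 -7.16. A middle group held snR3 at -6.94, snR5 at -6.29, snR84 at -6.28 and snR34 at -6.21. The listed targets of snR34, at positions 2826 and 2880, the latter of which is printed above, lie in the peptidyl transferase region of 25S rRNA. It had 353 and 452 counts in total RNA and 156 and 197 in poly(A) RNA. snR86 had -5.93, snR81 -5.86, snR46 -5.75, snR11 -5.69 and the intronic snR191 -5.24. The smallest differences were those of snR9 at -3.89, snR8 at -3.85 and snR33 at -2.70.

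snR33 had 136 and 145 counts in total RNA and 668 and 747 in poly(A) RNA. Its normalised level fell from 13.9 ± 2.38 to 2.12 ± 0.138 CPM (SD, n = 2; SE of the log2 fold change 0.14, adjusted p = 4.8e-13). Its read counts were thus higher in the poly(A) libraries, and with library totals its value was 2.61.

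Guides for 18S rRNA alone numbered 6 and ranged more widely, from -8.02 to -2.18, with a median of -5.10. snR83 had 11206 and 15013 counts in total RNA against 1428 and 1864 in poly(A) RNA. Its level fell from 1278 ± 13.02 to 4.93 ± 0.855 CPM (SD, n = 2), the largest difference among the 33 members, its log2 fold change being -8.02 (SE 0.12, adjusted p = 2.05e-23). snR85 had -5.59, snR35 -5.32, snR31 -4.87 and snR36 -4.53. snR161 had 14 and 16 counts in total RNA and 110 and 105 in poly(A) RNA, its log2 fold change being -2.18 (SE 0.36, adjusted p = 2.02e-05). It was among the most thinly counted members, and its total RNA counts limit the precision. Of the 5 guides with targets in more than a single rRNA, snR189 had -7.34, snR80 -5.63 (SE 0.56), snR43 -4.33, snR49 -3.80 and snR44 -0.83. The large SE of snR80 goes with 22 and 12 counts in total RNA and 7 and 15 in poly(A) RNA. The ranges of the target classes overlap widely, and the difference between the classes was not tested.

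The make-up of the H/ACA counts changed between the fractions. snR86, snR30 and snR83 together carried 74.5% and 75.1% of the H/ACA counts in total RNA and 59.6% and 58.1% in poly(A) RNA. snR30 alone went from 24.3% and 24.5% to 9.36% and 9.12%, and snR83 from 19.2% and 20.4% to 5.77% and 7.26%. snR86 went the other way, from 31.1% and 30.2% to 44.5% and 41.8%. The own row of snR10 was used here. snR44 held 0.207% and 0.254% in total RNA and 11.1% and 11.2% in poly(A) RNA. In each case the poly(A) libraries lay on 1 side of the total RNA libraries, with an exact two-sided permutation p of 0.333, the smallest possible.

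**Figure D3:**
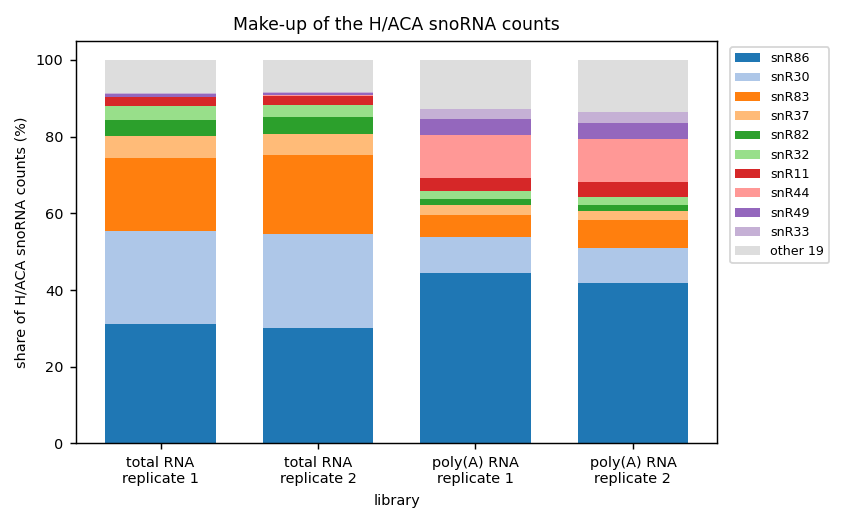
Share of the H/ACA snoRNA counts, in percent, that each of 10 members took in each library, with the other 19 in grey. snR86 is the largest block in every library, and snR44 widens from under 1% in total RNA to about 11% in poly(A) RNA.

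The intron-encoded members offered a comparison with an mRNA made from the same transcript. snR44, in the intron of RPS22B, a small-subunit ribosomal protein gene, had 121 and 187 counts in total RNA and 2742 and 2887 in poly(A) RNA. Its level fell from 14.8 ± 1.35 to 8.43 ± 0.190 CPM (SD, n = 2), its log2 fold change being -0.83 (SE 0.11, adjusted p = 1.91e-06). The fractions did not overlap, but the stricter test against a 2-fold change did not call it. RPS22B has a close copy, RPS22A, but shares no exact 50-base stretch with another place in the genome. It rose from 50.1 ± 6.70 to 112.7 ± 3.92 CPM, its log2 fold change being 1.16 (SE 0.09, adjusted p = 2.81e-10). Per kilobase of snoRNA and of coding length, snR44 stood at 0.571 and 0.537 of the host level in total RNA and at 0.141 and 0.138 in poly(A) RNA.

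snR191, in the intron of NOG2, which encodes a GTPase of large-subunit assembly, had 478 and 657 counts in total RNA and 451 and 525 in poly(A) RNA. Its level fell from 55.2 ± 0.437 to 1.46 ± 0.137 CPM (SD, n = 2), its log2 fold change being -5.24 (SE 0.11, adjusted p = 1.06e-20). NOG2 had 32.0 ± 2.74 and 37.8 ± 4.198 CPM and did not pass (log2 fold change 0.23, adjusted p = 0.0502). This call lay at the threshold. NOG2 was called higher at 0.26 with rRNA left out, at 0.23 with joined rows added, at 0.24 with the replicate block and at 0.56 with the coding sum. It was also called at 0.33 without total RNA replicate 2 and at 0.38 without poly(A) replicate 1. Relative to its host, snR191 stood at 9.73 and 8.71 in total RNA and at 0.209 and 0.204 in poly(A) RNA. Both intronic snoRNAs were thus below their host mRNA per length in poly(A) RNA, whereas in total RNA snR191 lay above its host and snR44 below. Unspliced host RNA and excised introns were not counted apart from the mature snoRNA, so their share of these reads was not tested.

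Longer members tended to be lower in poly(A) RNA. Across the 28 members other than snR10, the log2 fold change had a Spearman correlation of -0.53 and a Pearson correlation of -0.31 with length. The 12 members of up to 200 nucleotides had a median of -5.06, the 7 of 201 to 250 nucleotides -5.32 and the 9 above 250 nucleotides -7.22. Longer members also had higher levels per kilobase in total RNA (Spearman 0.54), with medians of 80.1, 70.4 and 922.5 CPM per kilobase in the 3 length classes. The log2 fold change and the total RNA level had a Spearman correlation of -0.70, but both use the same total RNA counts. The longest run of A in a member, between 3 and 7 bases, had a Spearman correlation of -0.050 with the log2 fold change. GC content, from 32.1% to 47.9%, had 0.25. These correlations describe genes within the same 4 libraries, which are not independent replicates.

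**Figure D4:**
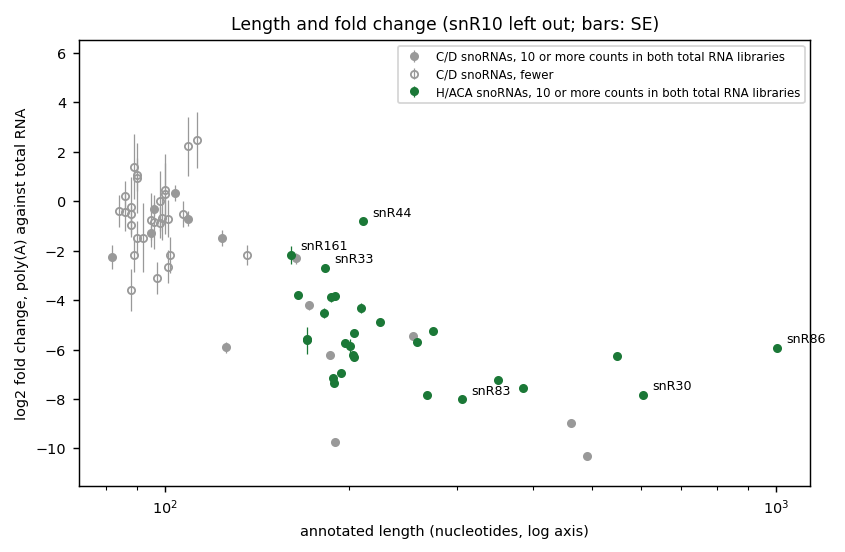
Log2 fold change, poly(A) against total RNA after TMM, against annotated length on a log axis, with SE bars. Green points are the 28 H/ACA snoRNAs other than snR10, grey points the C/D snoRNAs, open where a total RNA library had fewer than 10 counts. The H/ACA members above 250 nucleotides lie between -8.02 and -5.24, and the short C/D members have wide errors near 0.

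The C/D snoRNAs had far fewer reads, and most of those tested were not called. Of 47, 42 passed the filter. edgeR called 19 lower, 0 higher and 23 neither, beside 31.2% lower and 31% higher among all features. Their median was -0.86, with a range from -10.32 to 2.47. The highest value, that of snR48, rests on 1 and 0 counts in total RNA and 92 and 90 in poly(A) RNA. Such rows passed the filter through their poly(A) counts. Of the 14 C/D snoRNAs with at least 10 counts in both total RNA libraries, 12 were lower and 0 higher. The median of these 14 was -3.26. Of the 42, 17 were lower and 1 higher with scaling to the coding sum, where 67.1% of all calls were higher. With library totals 5 were lower and 36 higher, where 98.9% of all calls were higher. At an unadjusted p under 0.05, 20 were lower and 1 higher, and DESeq2 called 19 lower and 0 higher. They are shorter, with a median length of 98 nucleotides against 204, and had a median of 4 counts in total RNA against 301.5. Of the 37 C/D snoRNAs of up to 120 nucleotides, 32 were tested and 9 of these were lower, a share near the 31.2% of all features. All 7 of 121 to 200 nucleotides and all 3 longer ones were tested and lower. In the range of 121 to 200 nucleotides the median was -4.21 for the C/D and -5.06 for the 12 H/ACA members. The part of length and depth in the difference between the classes was not tested.

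The mRNAs of the core proteins did not follow the snoRNAs. Of the 4 genes, poly(A) RNA had 3 at a higher and 0 at a lower level, against 31% and 31.2% of all features, and in these 3 the poly(A) libraries did not overlap the total RNA libraries and were the higher, as in 42.8% of all features. At an unadjusted p under 0.05 and with DESeq2 the counts were also 3 and 0. NOP10 (chrVIII:241664-241840), the smallest protein of the particle, had 177 and 225 counts in total RNA and 13916 and 15771 in poly(A) RNA. Its level rose from 19.7 ± 0.931 to 44.5 ± 3.31 CPM (SD, n = 2), its log2 fold change being 1.181 (SE 0.10, adjusted p = 1.32e-09). The fractions did not overlap.

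NHP2 (chrIV:87512-87982), whose product binds beside Nop10, had 167 and 214 counts in total RNA and 11054 and 12161 in poly(A) RNA, its log2 fold change being 0.90 (SE 0.10, adjusted p = 8.65e-08). GAR1 (chrVIII:282681-283298), which encodes the glycine- and arginine-rich subunit, had 295 and 415 counts against 16125 and 18120, with 0.57 (SE 0.09, adjusted p = 1.2e-05). CBF5 (chrXII:506134-507585), the pseudouridine synthase gene, stood at 92.9 ± 2.65 CPM in total RNA against 93.2 ± 1.61 in poly(A) RNA (SD, n = 2). Its log2 fold change was 0.0069 (SE 0.08, adjusted p = 0.948). CBF5 turned to -0.018 with DESeq2 size factors and to 0.33, then called higher, with scaling to the coding sum. None of the 4 passed the test against a 2-fold change, which 1.41% of all features passed as higher.

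In total RNA, per kilobase of coding length, NOP10 mRNA stood at 111 ± 5.26 normalised CPM (SD, n = 2), CBF5 at 63.96 ± 1.82, GAR1 at 55.8 ± 1.36 and NHP2 at 39.6 ± 1.65. Each of these mRNAs lay apart from the others by more than the spread between replicates. In the same libraries snR83 stood at 4175, and the median of the H/ACA snoRNAs above 250 nucleotides was 922.5. By reads per length, the highest guides thus exceeded the mRNAs of their own proteins, while 5 of the 29 lay below NHP2. Those 5 were snR43, which lay within its own spread of NHP2, snR81, snR80, snR161 and the own row of snR10. Without snR10, the H/ACA snoRNAs of up to 200 and of 201 to 250 nucleotides had medians of 80.1 and 70.4. Recovery of short RNAs in the libraries was not tested, so these levels do not rank numbers of molecules.

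The C/D core proteins gave a comparison from a particle of the same kind. NOP1, the methyltransferase fibrillarin of yeast, fell by 0.60 on the log2 scale (SE 0.08, adjusted p = 1.08e-06) and NOP58, a scaffold of the particle, by 0.79 (SE 0.09, adjusted p = 4.96e-08). NOP56 had 0.14 and SNU13, a protein shared with the spliceosome, 0.014, and neither passed. Part of the reads of NOP58 and NOP56 stood in rows joined with a neighbouring reading frame. With these added, NOP56 was called higher at 0.28 (adjusted p = 0.00664, edgeR). It was also called at 0.28 without total RNA replicate 2 and at 0.26 without poly(A) replicate 2. With scaling to the coding sum, NOP56 at 0.47 and SNU13 at 0.34 were both called higher.

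Of the mRNAs of 6 factors that assemble H/ACA particles, 5 were higher in poly(A) RNA and 1 was lower, beside 31% and 31.2% of all features. Their median was 0.40. The DESeq2 test called 4 higher and 1 lower. The assembly factor NAF1, which joins the particle before Gar1, fell by 0.68 on the log2 scale (SE 0.10, adjusted p = 6.92e-06). PIH1, of the complex that also holds TAH1 and the helicases RVB1 and RVB2, had the highest value at 1.37 (SE 0.23, adjusted p = 2.81e-05), from only 10 and 31 counts in total RNA. Without total RNA replicate 1 the count of higher assembly factors was 3. None passed the test against a 2-fold change.

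Factors for the 3′ ends and caps of snoRNAs had 5 lower and 3 higher of 14, shares near the 31.2% and 31% of all features, with a median of 0.077. Those that passed the test against a 2-fold change, which 10.6% of all features passed as lower, were the 3 members of the termination complex that ends snoRNA transcripts. NRD1, its RNA-binding and polymerase-binding subunit, had 395 and 680 counts in total RNA and 2299 and 2559 in poly(A) RNA, its log2 fold change being -2.83 (SE 0.11, adjusted p = 1.09e-15). NAB3, its partner, fell by 1.72 (SE 0.10) and the helicase SEN1 by 1.48 (SE 0.09) on the log2 scale. With scaling to the coding sum, where 67.1% of all calls were higher, 8 of the 14 were higher. With library totals, where 98.9% of all calls were higher, all of these protein-coding genes were higher. They include NOP1, NOP58, NAF1, NRD1, NAB3 and SEN1.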

How the data were processed

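RNA of 4 libraries was sequenced single-end at 50 bases after random-primed library construction from 50 ng of RNA with 14 cycles of PCR, per the labels. The authors deposited raw read counts, whole numbers for each annotated feature, with separate rows for the overlap of features. FastQC 0.11.8, cutadapt 1.18, Bowtie2 2.3.4.3 and build R64 stand in the submitters' processing notes, which give no roles. The counting program and its strand setting are not given in the sources used here, so overlapping and antisense reads are uncertain.

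Per-feature differences were tested on the deposited counts with edgeR 4.0.16 (R 4.3.3), filterByExpr, TMM, its quasi-likelihood test and adjustment after Benjamini-Hochberg over 6945 features at 0.05. glmTreat gave the test against a 2-fold change. The SE is the log2 fold change divided by the square root of F. No replicate block was used, since the labels do not link replicate numbers. Alternatives were DESeq2 1.42.0, other scalings and filters, and leaving out each library. The procedure was tested on simulated protein-coding counts, drawn from a shared profile without rRNA. Changes of 2-fold were called in 98% and of 1.5-fold in 75% of 100 genes each. Unchanged genes were called in 0.138%. The simulation held no shift between the fractions, so it cannot test the scaling. Shares used an exact permutation test (scipy 1.17.1). Coordinates, lengths, target positions and sequences came from RefSeq build R64, where all 33 members matched by name or locus tag. All members were named by rule, as were host genes, C/D core proteins and, of the other lists, genes past the 2-fold test or otherwise the highest and lowest. The members and lists were chosen with earlier results of these data known.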

Additional observations from a re-analysis of the deposited data

How the results depend on the processing

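The count of H/ACA snoRNAs lower in poly(A) RNA was 28 or 29, and that of higher ones 0, under DESeq2 size factors, the DESeq2 test, scaling to the coding sum, no filter, rRNA left out, joined rows added, the replicate block and each library left out. Library totals without TMM gave 14 and 10, with 75 of all features lower and 6860 higher and a median of -0.38 for the H/ACA snoRNAs. That median was -5.37 with the coding sum and ranged from -5.88 to -5.54 with a library left out. With library totals the values turned to 1.46 for snR8, 1.42 for snR9, 0.44 for snR31, 2.61 for snR33, 0.78 for snR36, 0.98 for snR43, 4.49 for snR44, 1.51 for snR49, 3.12 for snR161 and 0.070 for snR191. They turned to 4.71 for NOP1, 4.51 for NOP58, 4.63 for NAF1, 2.48 for NRD1, 3.59 for NAB3 and 3.83 for SEN1. These shifts follow from the construction, since rRNA fills the total RNA libraries. snR10 turned to -6.92 with joined rows added and ranged from -0.37 without total RNA replicate 1 to 7.88 without total RNA replicate 2. Near 0, CBF5 turned to -0.018 with DESeq2 size factors, -0.011 with the DESeq2 test and ranged from -0.018 to 0.042 with a library left out. SNU13 turned to -0.010 and -0.0052 in these and ranged from -0.081 without total RNA replicate 2, over -0.032 without poly(A) replicate 2, to 0.11.

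The log2 ratio of the H/ACA share was -1.11, between -1.19 and -1.03 with a library left out, and 0.085 when taken of all snoRNA counts. A fit with a library left out assumes that the lone library varies like the other fraction. Replicate numbers did not pair the libraries by the labels, and same-numbered differences correlated at 0.017 over all features and at 0.22 over the 4265 with at least 50 counts on average in total RNA. With the replicate block, 28 H/ACA snoRNAs were lower, with a median of -5.69, and 3 core protein genes were called. Total RNA depth limits snR10, snR80 and snR161, which had fewer than 25 counts per library there.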
